A study of Triticum aestivum with 6 samples.

Results

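PORA, PSBO, PSBP, PSBR, PETC and WHAB1.6 are nuclear genes of chlorophyll synthesis and of the photosynthetic membrane that the count table of filling wheat grain lists under a gene symbol. They were taken by symbol, as 6 of the 102602 identifiers in the table, and all 6 passed the filter on low counts with 50136 identifiers in all. The libraries were made from inferior grains, which set late within the spike, of field-grown bread wheat (Triticum aestivum, cultivar Xinong 538). Titles alone divided them into SPD and CK, with 3 libraries in each. Neither abbreviation is explained in the labels, every library carries the same treatment entry (spermidine, a polyamine, applied from outside) and every library is given the same stage, 8 and 16 days post anthesis. Treated and untreated grain, or early and late grain, could therefore not be assigned, and the contrast is described here as SPD against CK. The labels do not say whether libraries of a group came from separate plants or plots, so tests speak only of the spread between libraries. Totals ran from 10561224 to 13088727 counts.

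A young cereal grain is green. Cells of the inner pericarp, the maternal tissue around the endosperm, hold chloroplasts that fix carbon and release oxygen inside the grain until the tissue yellows and dies back. PORA encodes a protochlorophyllide oxidoreductase, which carries out the light-dependent step of chlorophyll synthesis. Photosystem II splits water at a manganese cluster that PSBO and PSBP shield on the lumen side of the membrane, and PSBR is a small protein of the same side. PETC encodes the Rieske iron-sulfur protein of the cytochrome b6f complex, which passes electrons from photosystem II towards photosystem I. WHAB1.6 encodes a chlorophyll a/b-binding protein of the light-harvesting antenna. Bread wheat usually carries a copy of such a gene in each of its 3 subgenomes, and reads of near-identical copies can be shared out in ways the table does not show, so each value belongs to the listed entry and is uncertain as the level of a single copy.

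All 6 genes had their highest level in SPD replicate 3, and none was called between SPD and CK. The fitted values were positive for all 6, with a median log2 fold change of 0.51, against a median of 0.0048 over all genes tested, of which 50.7% were positive. The quasi-likelihood test of edgeR called 0 of the 6 and 0.00% of all genes in either direction at an adjusted p of 0.05, and 0.997 was the adjusted p of each of the 6. Without adjustment, 3 of the 6 (PORA, PSBO and PSBP) lay below 0.05 on the higher side, where 1.90% of all genes did. Across all genes 1800 (3.59%) lay below an unadjusted 0.05 in edgeR and 1787 in limma-voom, which also called 0. The Wald test of DESeq2 had 1547 below 0.05 and called 3 genes, none of them among the 6. Without SPD replicate 3, 4 of the 6 values were positive (50.2% of all genes), with a median of 0.17, and PORA alone stayed below an unadjusted 0.05 (1.89% on the higher side). That count of 3 also moved with other libraries: it was 0 without CK replicate 1, 1 without CK replicate 3 or without SPD replicate 1, and 4 without SPD replicate 2. SPD replicate 3 also stood apart over the whole transcriptome, at 140 on a first principal component (35.4% of variance) where the other 5 libraries lay between -42.6 and -20.7. SPD replicate 1 stood apart on the second component (21.3%), at -105, where the others lay between 0.06 and 42.4. Fits without SPD replicate 3 therefore still hold a library that stands apart. The genes were picked out with these results in view, so their counts describe them and do not test them.

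PORA, the chlorophyll synthesis gene, moved over the widest range among the 5 genes with ample counts. Levels are given as CPM, a gene's count relative to the TMM-scaled library total, in replicate order. PORA stood at 12.8, 22.0 and 15.2 CPM in CK, against 33.5, 17.3 and 52.1 CPM in SPD. SPD replicates 1 and 3 lay above every CK library, and SPD replicate 2 lay inside the CK range. The highest library held 4.06 times the level of the lowest. These levels rested on 161 to 533 counts per library, for which counting alone gives a coefficient of variation of 7.88% down to 4.33%. The log2 fold change was 1.04 (SE 0.34, 95% interval 0.29 to 1.79, n = 3 per group) and 0.61 (SE 0.27) without SPD replicate 3. In bulk grain, a larger share of green cells cannot be told apart from more RNA of these genes per green cell.

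**Figure D1:**
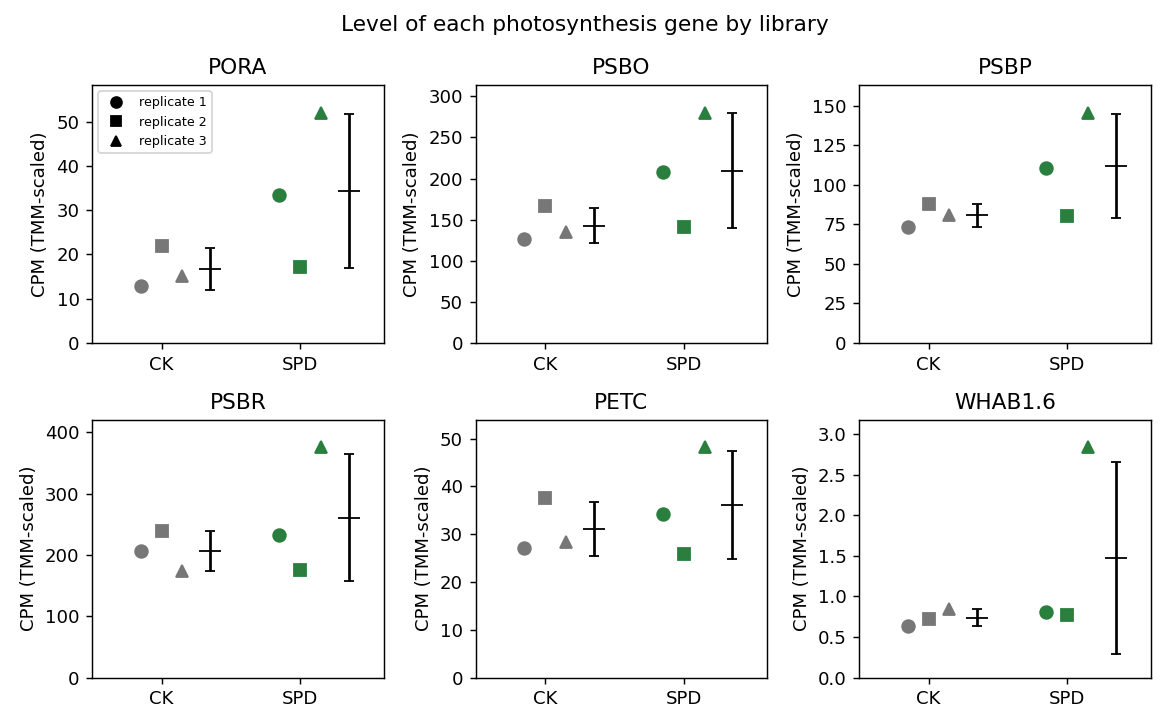
Level of each gene in CPM (TMM-scaled, y axis) in the CK (grey) and SPD (green) libraries, with a marker shape for each replicate number and the group mean ± SD in black beside the points. SPD replicate 3 (green triangle) is the highest point of every panel, and SPD replicate 2 (green square) lies within the CK range, or below it for PETC.

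Among the photosystem II genes, PSBO and PSBP, which belong to the oxygen-evolving complex, had the same 3 libraries on top as PORA, in the same order, over a narrower range. PSBO stood at 126, 167 and 135 CPM in CK and at 208, 141 and 280 CPM in SPD. As for PORA, SPD replicates 1 and 3 exceeded all CK libraries and SPD replicate 2 fell between them. The log2 fold change of PSBO was 0.55 (95% interval 0.08 to 1.02), and 0.29 without SPD replicate 3. PSBP stood at 73.6, 87.8 and 80.6 CPM in CK and at 111, 80.0 and 146 CPM in SPD, with the same arrangement of the groups. Its log2 fold change was 0.47 (95% interval 0.05 to 0.89), and 0.24 without SPD replicate 3. From lowest to highest library PSBO spanned 2.22-fold and PSBP 1.98-fold.

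PSBR and PETC had CK replicate 2 next after SPD replicate 3 and then SPD replicate 1, and differed in the order of the lower libraries. PSBR stood at 206, 239 and 173 CPM in CK and at 232, 176 and 376 CPM in SPD. SPD replicate 3 alone lay above the CK libraries, and the other SPD libraries lay within their range. The log2 fold change of PSBR was 0.34 (95% interval -0.17 to 0.86), and without SPD replicate 3 it changed sign, to -0.015 (SE 0.14). PETC stood at 27.2, 37.5 and 28.4 CPM in CK and at 34.2, 25.9 and 48.2 CPM in SPD, so that the SPD libraries included both its highest and its lowest value. Its log2 fold change was 0.22 (95% interval -0.27 to 0.70), and -0.044 (SE 0.18) without SPD replicate 3. The 95% intervals of PSBP, PSBR and PETC leave out a 2-fold change, which is 1 on the log2 scale. Those of PORA, PSBO and WHAB1.6 (next described) reach past it. Each interval is for a single gene, adjusted neither for the number of genes tested nor for the choice of the genes. The wholly positive intervals of PORA, PSBO and PSBP are therefore not calls.

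WHAB1.6, the antenna protein gene, was near the limit of detection. It had 8, 8 and 11 counts in CK and 10, 10 and 29 counts in SPD. The first 5 of these agree within counting error, with exact 95% Poisson intervals that together run from 3.45 to 19.7, and SPD replicate 3 has an interval of 19.4 to 41.6. In CPM its levels were 0.64, 0.72 and 0.85 in CK and 0.81, 0.77 and 2.83 in SPD. The log2 fold change was 0.97 (95% interval -0.51 to 2.45), and 0.10 (SE 0.81) without SPD replicate 3, so at this depth neither its direction nor its size could be told. Intervals of single counts cover counting error only.

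**Figure D2:**
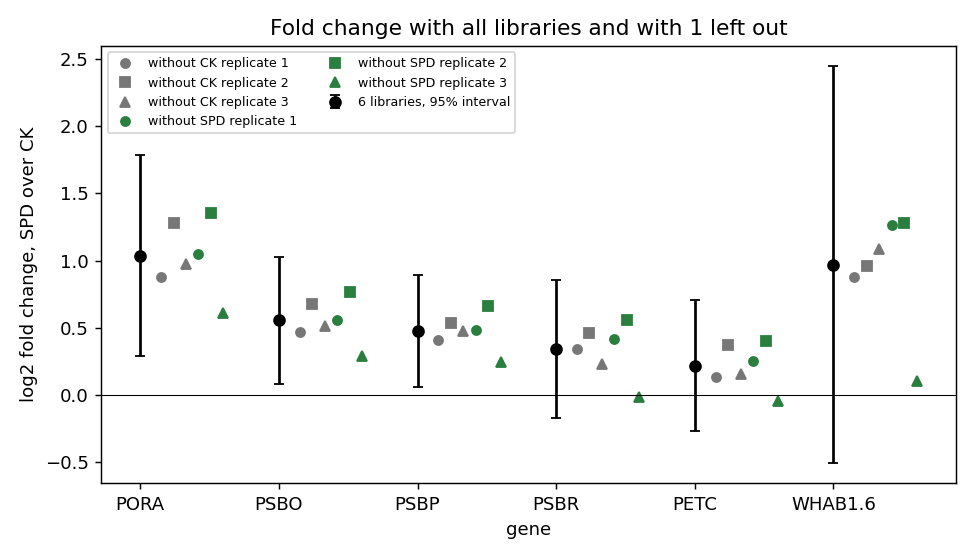
Log2 fold change of SPD over CK (y axis) for each gene, from all 6 libraries with its 95% interval (black) and with 1 library left out (coloured markers). Values without SPD replicate 3 (green triangles) are the lowest of each gene and fall to -0.015 for PSBR and -0.044 for PETC.

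Which library was left out set the size of these values. Without SPD replicate 2 the log2 fold changes were 1.35 for PORA, 0.77 for PSBO, 0.66 for PSBP, 0.55 for PSBR and 0.40 for PETC, and the lowest adjusted p among the 6 was 0.498. Without SPD replicate 1 those of PORA and PSBO were 1.05 and 0.56, close to the values from all libraries. Leaving out CK replicate 2, the CK library with the highest level of all members but WHAB1.6, gave 1.28 for PORA, 0.68 for PSBO and 0.37 for PETC. No gene of the 6 was called in any of these fits. None of the 6 had all SPD libraries above all CK libraries, an arrangement found in 4.73% of the genes tested.

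The libraries on top were shared by most of the genes. SPD replicate 3 was highest for all 6 genes, where it was highest for 23.2% of all genes tested. For PORA, PSBO and PSBP the next were SPD replicate 1 and then CK replicate 2, and for PSBR and PETC these came in the opposite order. This arrangement, SPD replicate 3 followed by those libraries in either order, thus held in 5 of the 6 genes, and in 3.21% of all genes tested. It was singled out after the values were seen. CK replicates 1 and 3 and SPD replicate 2 filled the lower places for these 5 genes. SPD replicate 2 thus sat with CK libraries, and CK replicate 2 beside SPD replicate 1.

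**Figure D3:**
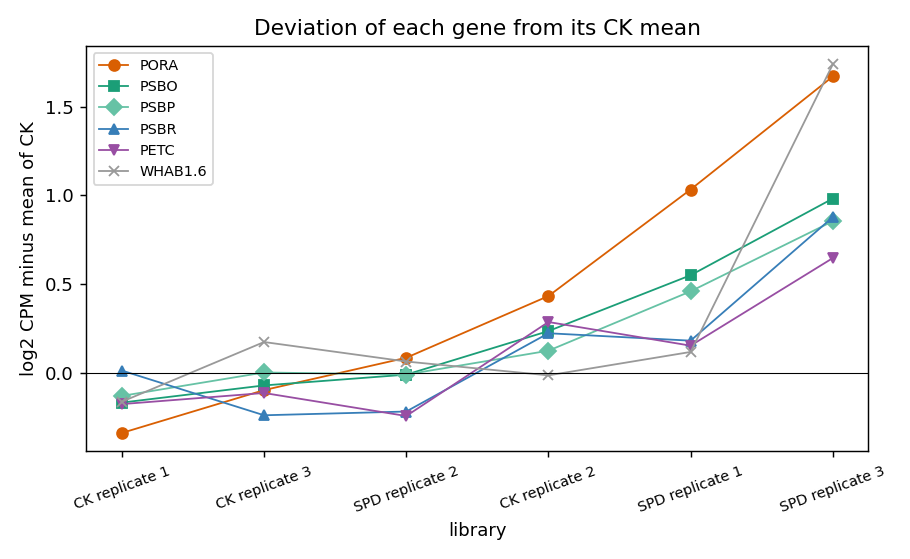
Deviation of each gene from its own CK mean in log2 CPM (y axis) in the 6 libraries (x axis, arranged from low to high PSBO). PORA, PSBO and PSBP climb from CK replicate 2 through SPD replicate 1 to SPD replicate 3, PSBR and PETC dip at SPD replicate 1, and WHAB1.6 lies far from zero in SPD replicate 3 alone.

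Co-variation was tightest between PORA, PSBO and PSBP. Over the 6 libraries, Pearson's r of log2 CPM was 0.997 for PORA with PSBO, 0.988 for PORA with PSBP and 0.993 for PSBO with PSBP. Spearman's rho for these was 1, 0.943 and 0.943. PSBR with PETC gave an r of 0.948 and a rho of 0.829. Over the 15 combinations r ran from 0.798 to 0.997, with a mean of 0.898, or 0.597 without SPD replicate 3. With two-sided exact permutation tests adjusted by Benjamini and Hochberg over the 15, 11 combinations had an adjusted p under 0.05 for r (lowest 0.0139), and 1, PORA with PSBO, had one for rho (adjusted p = 0.0417). The 4 others by r all involved WHAB1.6. All combinations share libraries, total counts and scaling, and the joint pattern was known when the genes were chosen. How often combinations of other genes reach such p-values was not computed, so these counts do not set the 6 genes apart.

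**Figure D4:**
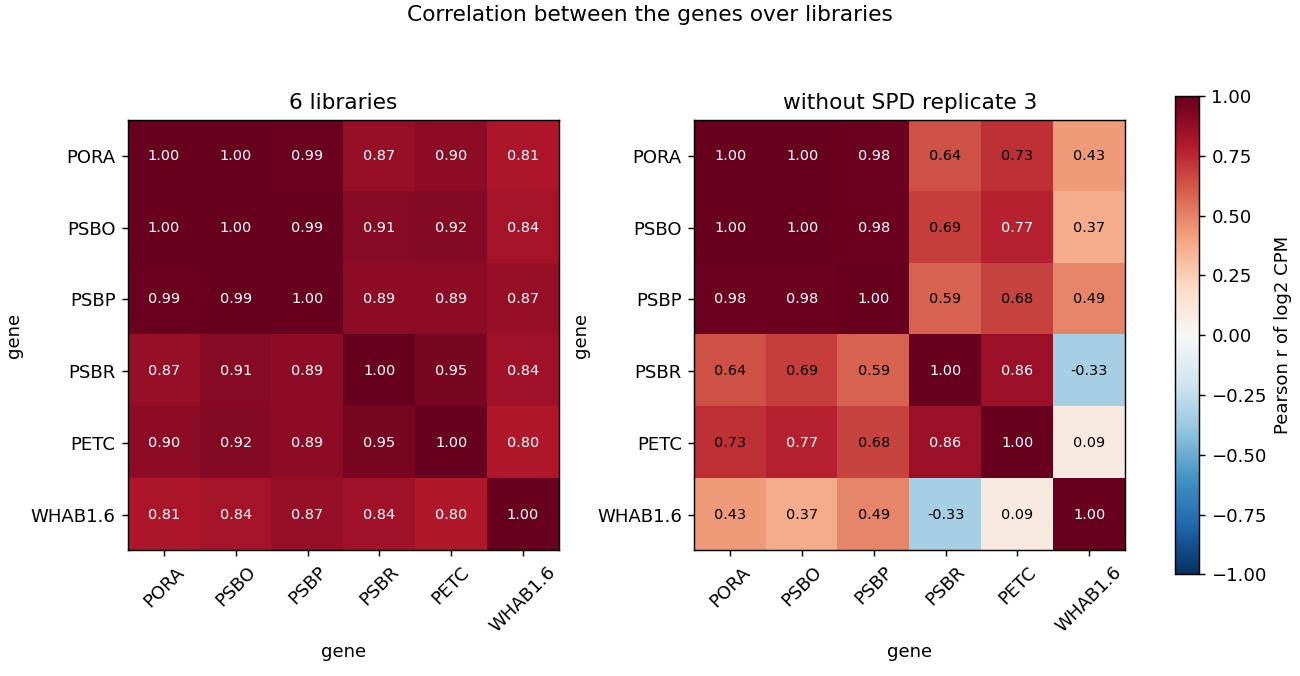
Pearson's r of log2 CPM between the 6 genes over all 6 libraries (left) and without SPD replicate 3 (right), coloured from -1 (blue) to 1 (red). The block of PORA, PSBO and PSBP stays at 0.98 or above in both panels, and the cells of WHAB1.6 fall to between -0.33 and 0.49 on the right.

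The correlation of PORA, PSBO and PSBP did not rest on SPD replicate 3. Without the 2 libraries farthest from the median of PORA, which were SPD replicates 1 and 3, r was 0.984 for PORA with PSBO and 0.958 for PORA with PSBP. Without the 2 farthest for PSBO, again SPD replicates 1 and 3, it was 0.951 for PSBO with PSBP. For PSBR with PETC it was 0.922 without CK replicate 3 and SPD replicate 3. PETC with PORA, PSBO and PSBP still gave 0.771, 0.869 and 0.806. PSBR with the same genes fell to 0.478, 0.612 and 0.398, so these relations rested on the libraries left out. WHAB1.6 with the other genes fell to between 0.027 and 0.437. Its counts in the libraries kept, 8 to 11, agree within counting error, so this fall cannot show what its relations rested on. Taken as deviations from the group means, the mean r over the 15 combinations was 0.902, and it was 0.898 with the groups left in. Both values include SPD replicate 3, without which the mean r was 0.597. Each group holds 3 libraries, too few for a correlation within it.

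Ratios between the genes inside a library do not depend on how libraries were scaled, and a given ratio can be compared between libraries without knowing gene lengths. PSBO to PSBP was the steadiest of the 15 ratios, at 1.72, 1.90 and 1.68 in CK and 1.88, 1.76 and 1.92 in SPD. Its highest value was 1.15 times its lowest, while either gene alone spanned about 2-fold. PSBR to PETC spanned 1.28-fold. PORA to PSBO was 0.102, 0.132 and 0.113 in CK and 0.161, 0.123 and 0.186 in SPD, a span of 1.83-fold. PORA thus varied in the same direction as PSBO and over a wider range.

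Relative to PETC, PORA, PSBO and PSBP had higher values in each SPD library than in each CK library, though none of these differences was called. PSBO to PETC was 4.65, 4.45 and 4.76 in CK and 6.08, 5.43 and 5.82 in SPD. PSBP to PETC was 2.71, 2.34 and 2.84 in CK and 3.24, 3.08 and 3.02 in SPD. PORA to PETC was 0.472, 0.587 and 0.535 in CK and 0.979, 0.666 and 1.08 in SPD. SPD replicate 2, whose levels lay within the CK range for PORA and PSBO, was above all CK libraries in these ratios. In that library the shared denominator, PETC, had its lowest level, 25.9 CPM, against 27.2 to 37.5 CPM in CK. As these ratios share PETC, and PORA, PSBO and PSBP varied together (r of 0.988 to 0.997), they are not separate observations. The mean log2 ratio was 0.32 higher in SPD for PSBO to PETC, 0.25 for PSBP to PETC and 0.75 for PORA to PETC, and 0.32, 0.27 and 0.61 without SPD replicate 3. PORA to PSBR, at 0.0622 to 0.0922 in CK and 0.0982 to 0.144 in SPD, did not overlap either, with a mean log2 ratio 0.66 higher.

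These were 4 of the 15 ratios, each at p = 0.1 in a two-sided exact permutation test, the smallest p that 3 against 3 libraries allow, and an adjusted p of 0.375 over the 15. None was called, and the ratios were examined after the levels had been seen. Of the other genes that averaged 5 CPM or more, 0.502% had a ratio to PETC that was higher in all SPD than in all CK libraries, and PORA was higher in that way relative to 13.8% of them. Without CK replicate 2 the number of ratios without overlap was 7, and without CK replicate 3 it was 8. Leaving out a library narrows or keeps the range of its group, so this number could not fall. It counts both directions, and no share over other genes was computed with a library left out. The ratio of PSBO to PSBP overlapped between the groups (exact permutation p = 0.3), with a mean log2 ratio 0.07 higher in SPD.

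Summed over the 6 genes the level was 447, 554 and 433 CPM in CK, against 619, 441 and 905 CPM in SPD. SPD replicate 2 lay inside the CK range, and the other SPD libraries above it. The log2 ratio of the group means was 0.45, and 0.15 without SPD replicate 3. PSBR and PSBO weighed most in the sum, with mean shares in CK of 43.1% and 29.9%, against 3.45% for PORA and 0.16% for WHAB1.6. The sum thus mostly describes these 2 photosystem II genes. Such shares also depend on gene length, and levels of different genes are not ranked here because coding lengths were not at hand.

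Listed markers of other grain tissues, summed, did not follow the same order. The 11 starchy endosperm genes on the list, among them WAXY (granule-bound starch synthase) and the puroindolines PINA and PINB, were all detected, as grain should show. Their summed level ran from 21425 to 22713 CPM in CK and from 19704 to 26189 CPM in SPD, where SPD replicate 3 was highest and SPD replicate 1, second for PORA and PSBO, was lowest. Of these 11, 5 had positive fitted values, with a median log2 fold change of -0.012 and 0 called. Of 7 listed aleurone and embryo genes 3 were in the table, of which EM was at 0 in every library and 2 passed the filter. The 3 summed to 125 to 154 CPM in CK and 98.7 to 126 CPM in SPD, with SPD replicate 1 lowest. The 100 most abundant genes took 19.9% of counts in SPD replicate 3 and 16.1% to 17.0% elsewhere. The part of these differences in the photosynthesis genes was not tested.

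The wider photosynthetic machinery had almost no counts under its symbols. Apart from the 6 genes, 38 symbols matched a list of photosynthesis names, and 35 of them had 0 counts in all 6 libraries. These included all 13 further photosystem II symbols, such as psbA, which encodes the D1 reaction centre protein. They also included all 5 of photosystem I, all 3 of the cytochrome b6f complex and RBCL, the large subunit of the carbon-fixing enzyme Rubisco. Most of these symbols name genes of the chloroplast's own genome, unlike the 6 genes described above. A count of 0 allows up to 3 counts, or 0.229 to 0.284 CPM in these libraries, for counting error only. The symbol ycf4 had 1 count in all and ndhK had 2. Why they had almost none was not tested, and neither the enrichment of the RNA nor the counting of reads is described in the labels.

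The one further symbol of that list that passed the filter was FBP, which stood at 22.2, 19.9 and 11.2 CPM in CK, against 22.2, 15.2 and 21.7 CPM in SPD. It overlapped between the groups, was not called (log2 fold change 0.15, SE 0.26, edgeR adjusted p = 0.997), and correlated with the mean profile of the 6 genes at an r of 0.481. Its symbol can stand for a fructose-bisphosphatase, and the table does not say which product is meant. Of the 38, then, FBP was the 1 gene that could be tested, and the other 37 had too few counts for the test.

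Each gene was also set against the mean profile of the other 5. The correlation over 6 libraries was 0.957 for PORA, 0.977 for PSBO, 0.974 for PSBP, 0.931 for PSBR, 0.929 for PETC and 0.856 for WHAB1.6. Among the 28091 genes that averaged 5 CPM or more, 4.07% had a correlation with the profile of all 6 at or above 0.856, and 0.203% had one at or above that of PSBO. Those of the 6 genes that averaged 5 CPM or more are among the 28091. The shares are approximate, as each threshold comes from the other 5 genes and the background from all 6. Without SPD replicate 3 the correlation with the other 5 was 0.976 for PSBO, 0.961 for PORA and 0.944 for PSBP. It was lower for PETC, at 0.765, and for PSBR, at 0.575, and it fell furthest for WHAB1.6, to 0.229.

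The genes with a symbol most like the mean profile of the 6 were TUBB2, a beta-tubulin, at an r of 0.952, AFP-A1 at 0.945, BMY1, a beta-amylase of starch breakdown, at 0.941, TSA at 0.925 and WZCI at 0.917. TUBB2 varied little, from 114 CPM in SPD replicate 2 to 152 CPM in SPD replicate 3. TSA stood at 169, 200 and 173 CPM in CK, against 195, 169 and 216 CPM in SPD, so it too had CK replicate 2 and SPD replicates 1 and 3 on top. Of identifiers without a symbol, TRAES3BF004400040CFD_g had an r of 0.995 and Traes_3DL_A5FC382DE one of 0.994. TRAES3BF004400040CFD_g stood at 240, 290 and 244 CPM in CK, against 293, 244 and 409 CPM in SPD. None of these 7 was called. When the search was repeated without SPD replicate 3, TSA alone was named again. The correlation of Traes_3DL_A5FC382DE was then still 0.990 and that of TRAES3BF004400040CFD_g 0.953, against 0.899 for TSA. A correlation of 0.9 or more was found in 655 of the 28091 genes that averaged 5 CPM or more. Without SPD replicate 3, and so over fewer libraries, 724 genes had one. Those of the 6 genes that averaged 5 CPM or more were not left out of these counts.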

How the data were processed

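The authors deposited raw counts per gene identifier, whole numbers without normalisation, in 1 column per library. Per the submitters' processing notes HISAT2 was used (no version named). Not given in the sources used here are the counting program, build, annotation and strand setting. Groups and replicate numbers came from titles. The 6 genes, the lists and the tests were chosen with earlier results of these data known. Counts were filtered by filterByExpr of edgeR 4.0.16 (at its defaults, min.count 10 and min.total.count 15), then TMM-scaled and compared in R 4.3.3 by the two-sided quasi-likelihood test, adjusted by Benjamini and Hochberg over 50136 genes (threshold 0.05). Alternatives used DESeq2 1.42.0 and limma 3.58.1. Correlations used log2 CPM with a prior count of 2. Scripts were tested on simulated data. Every combination of libraries differed beyond sampling noise (chi-square per degree of freedom 4.12 to 16.4). Other named genes were the 5 with a symbol and 2 without one of highest correlation with the mean standardised profile, at a mean of at least 5 CPM, plus tested symbols of the wider photosynthesis list. Of the 6 symbols, 5 (all but PSBR) had an entry in the RefSeq gene table of assembly IWGSC CS RefSeq v2.1; neither its coordinates nor sequences were used.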

Additional observations from a re-analysis of the deposited data

How the results depend on the processing

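Of 77 alternative fold changes of the 6 genes, 2 changed sign, both without SPD replicate 3: PSBR to -0.015 and PETC to -0.044. With 1 library left out they reached at most 0.55 and 0.40, without SPD replicate 2. WHAB1.6 did not pass a filter of 1 CPM in at least 3 libraries and has no value there. With 1 library left out, the count of called genes ran from 0 to 1, the median log2 fold change of the 6 from 0.17 to 0.72, the log2 ratio of summed levels from 0.15 to 0.67, and the mean r from 0.597 to 0.937. The Wald test of DESeq2 called 3 genes. The mean over the 15 combinations was 0.898 as Pearson's r and 0.730 as Spearman's rho. Without SPD replicate 3, 1 of the 7 genes most like the profile was named again. The number of the 6 genes with an unadjusted p under 0.05, which was 3, fell to 0 if CK replicate 1 was left out and reached 4 if SPD replicate 2 was, was 1 without SPD replicate 3, and was 1 with the replicate number as a block. Ratios without overlap, 4 with all libraries, ran from 4 to 8 with 1 left out. Leaving out a library cannot lower this number, and no share over other genes was computed beside it. The counts of positive values and of unadjusted p-values and the ratios were added after the data were seen. The causes were not tested. Same-numbered libraries did not deviate together (correlations 0.016, -0.058 and -0.029). With the replicate number as a block, 0 genes were called (1445 at an unadjusted p under 0.05), PORA lay at 0.96 and the median of the 6 genes at 0.48. The other alternatives kept the direction and the call of each of the 6 genes.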
